A study of Caenorhabditis elegans with 2 samples.

Results

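The Hox cluster genes of Caenorhabditis elegans, lin-39, ceh-13, mab-5, egl-5, php-3 and nob-1, were examined for binding of LIN-13 in peak lists from chromatin immunoprecipitation sequencing. The 6 genes were selected by gene name in the WBcel235 annotation, and they are 6 of 19973 nuclear protein-coding genes. A peak was assigned to a gene when its summit, the base of highest signal, lay inside the gene or within 10 kb of it. There was 1 group, of 2 biological replicates: whole fourth-stage (L4) larvae, males and females pooled, of strain OP49. Both replicates carried the unc119(ed3) allele and the integrated transgene wgIs49, which holds lin-13 fused to the TY1, EGFP and FLAG tags together with a copy of unc119. The labels list no mutation of the endogenous lin-13 gene, and they give neither the age of the larvae nor the promoter of the fusion. They describe the target as the eGFP-tagged protein in one field and name lin-13 as the antibody in another. The lists hold no read counts, so the depth of each replicate is unknown. There was no second condition, so counts and values are set beside those of all genes without a test.

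Hox genes encode homeodomain transcription factors that give cells their identity along the head to tail axis. In the worm ceh-13 is the labial-class gene, lin-39 acts in the mid-body and is needed for vulval precursor cells, mab-5 acts in the posterior body, and egl-5, php-3 and nob-1 are posterior genes of the Abdominal-B class. LIN-13, which contains zinc fingers, belongs to the synMuv B proteins, which restrain vulval fate and keep germline genes off in somatic cells. Each Hox gene is active in few cells of the larva. In whole larvae, binding in few cells and weak binding in many cells cannot be told apart.

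All 6 genes lie on chromosome III (build ce11). In coordinate order they are lin-39 (7528641 to 7536632, minus strand), ceh-13 (7555660 to 7558041, plus strand), mab-5 (7776835 to 7783454, minus strand), egl-5 (7814374 to 7817141, plus strand), php-3 (12074218 to 12077556, minus strand) and nob-1 (12077793 to 12084316, minus strand). They form 3 pairs, with gaps of 19028 bp between lin-39 and ceh-13, 30920 bp between mab-5 and egl-5 and 237 bp between php-3 and nob-1. A stretch of 218794 bp separates ceh-13 from mab-5, and 4.26 Mb separate egl-5 from php-3. The gene lin-13 itself (7700338 to 7709491, minus strand) lies between ceh-13 and mab-5.

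These sequences come from around the highest pooled summit of each window, to show the DNA at and beside these peaks. Each is read on the plus strand from the RefSeq genome of the same assembly, up to 100 bp on either side of the summit and without bases annotated as untranslated regions, which shortens it in the lin-39, mab-5 and egl-5 windows. The lin-39 sequence thus runs past the end of its peak, and the mab-5 sequence starts 30 bp to the right of the summit. Capitals mark any of the 8 motifs described further on. The full window of the mab-5 summit held 1 of them, TAATTA, among the bases left out. Php-3 and nob-1 share their highest peak.
lin-39 window, chrIII:7520846-7520954: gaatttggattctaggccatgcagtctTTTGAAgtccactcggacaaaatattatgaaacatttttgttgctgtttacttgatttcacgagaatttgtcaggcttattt
ceh-13 window, chrIII:7554713-7554913: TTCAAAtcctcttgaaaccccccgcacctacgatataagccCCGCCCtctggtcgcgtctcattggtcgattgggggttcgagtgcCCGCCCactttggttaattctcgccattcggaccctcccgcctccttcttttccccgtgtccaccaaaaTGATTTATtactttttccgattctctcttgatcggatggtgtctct
mab-5 window, chrIII:7770121-7770191: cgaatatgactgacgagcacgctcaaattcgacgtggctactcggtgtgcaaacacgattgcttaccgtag
egl-5 window, chrIII:7824251-7824376: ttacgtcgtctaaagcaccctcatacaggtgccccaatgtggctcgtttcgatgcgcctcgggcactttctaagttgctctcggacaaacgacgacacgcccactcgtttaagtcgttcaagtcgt
php-3 and nob-1 window, chrIII:12085126-12085326: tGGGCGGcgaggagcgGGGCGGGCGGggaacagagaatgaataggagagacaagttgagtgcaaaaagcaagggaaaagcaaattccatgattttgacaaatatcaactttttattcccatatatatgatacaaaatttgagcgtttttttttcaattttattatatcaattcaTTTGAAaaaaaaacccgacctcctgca

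In the list of peaks that the authors kept after filtering on the irreproducible discovery rate (IDR), a measure of how well replicates rank the same peaks, LIN-13 was near 1 of the 6 Hox genes, lin-39, and at no Hox promoter. Promoter here means at most 500 bp from the start of an annotated protein-coding transcript. Of all protein-coding genes 35.8% had an IDR summit inside or within 10 kb, and of the 2640 on chromosome III 49.2% did. At annotated 5' ends, with 500 bp on either side, 0 of the 6 had an IDR summit, whereas 6.99% of all genes and 11% of those on chromosome III had one. None had one inside the gene, against 2.83% of all genes and 4.85% of those on chromosome III. With 6 genes and a shared window for php-3 and nob-1, these counts do not set the Hox genes apart from other genes.

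The peak near lin-39 lay at the promoters of other genes. It spanned 7520794 to 7520892 and ranked 320 of 2141 IDR peaks, with a signal value of 95.4 in the pooled list. The signal value is the authors' own score of a peak, with no stated scaling, and is compared within a list. The values were 55.0 in replicate 1 (rank 301) and 41.0 in replicate 2 (rank 420), so both replicates placed this peak among their 2141 highest. The summit was 7787 bp beyond the 3' end of lin-39 and 15778 bp downstream of its outermost 5' end. It was 9 bp upstream of the 5' end of cux-7, 155 bp upstream of that of C07H6.2 and 609 bp upstream of that of lig-4, which encodes DNA ligase IV. The lin-39 window sequence held 1 motif, TTTGAA, at 19 to 24 bp from the summit on its right side.

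The relaxed lists were made as input for the IDR step and hold 30000 entries each, and the pooled one is labelled as peaks and background. They contained further and weaker summits at every Hox gene. A summit that is only in these lists may thus be background and does not by itself show binding of LIN-13. All 6 genes had a pooled summit inside or within 10 kb, as did 88.9% of all genes, and 2 of the 6, mab-5 and nob-1, had one inside the gene, against 38.3% of all genes and 51.9% of those on chromosome III. The pooled list had 27 summits over the 6 windows, which together span 128.9 kb. That is 209.5 per Mb, against 298.9 per Mb over the nuclear genome and 390.9 per Mb on chromosome III. Replicate 1 had 30 summits there and replicate 2 had 31. The IDR list had 1, or 7.76 per Mb, against 21.2 per Mb over the nuclear genome and 31.8 per Mb on chromosome III. Both kinds of list were thus sparser at the Hox genes than over the chromosome, on a count of 1 for the IDR list.

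Pooled signal values of the 27 summits ran from 8.17 to 95.4, with a median of 11.2, against a median of 13.2 over all nuclear pooled peaks. The lin-39 peak was the only one of them above 40.1, the lowest value in the IDR list. The next highest was 25.1, at rank 5037. All others lay between it and the floor of the pooled list at 8.14.

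**Figure D1:**
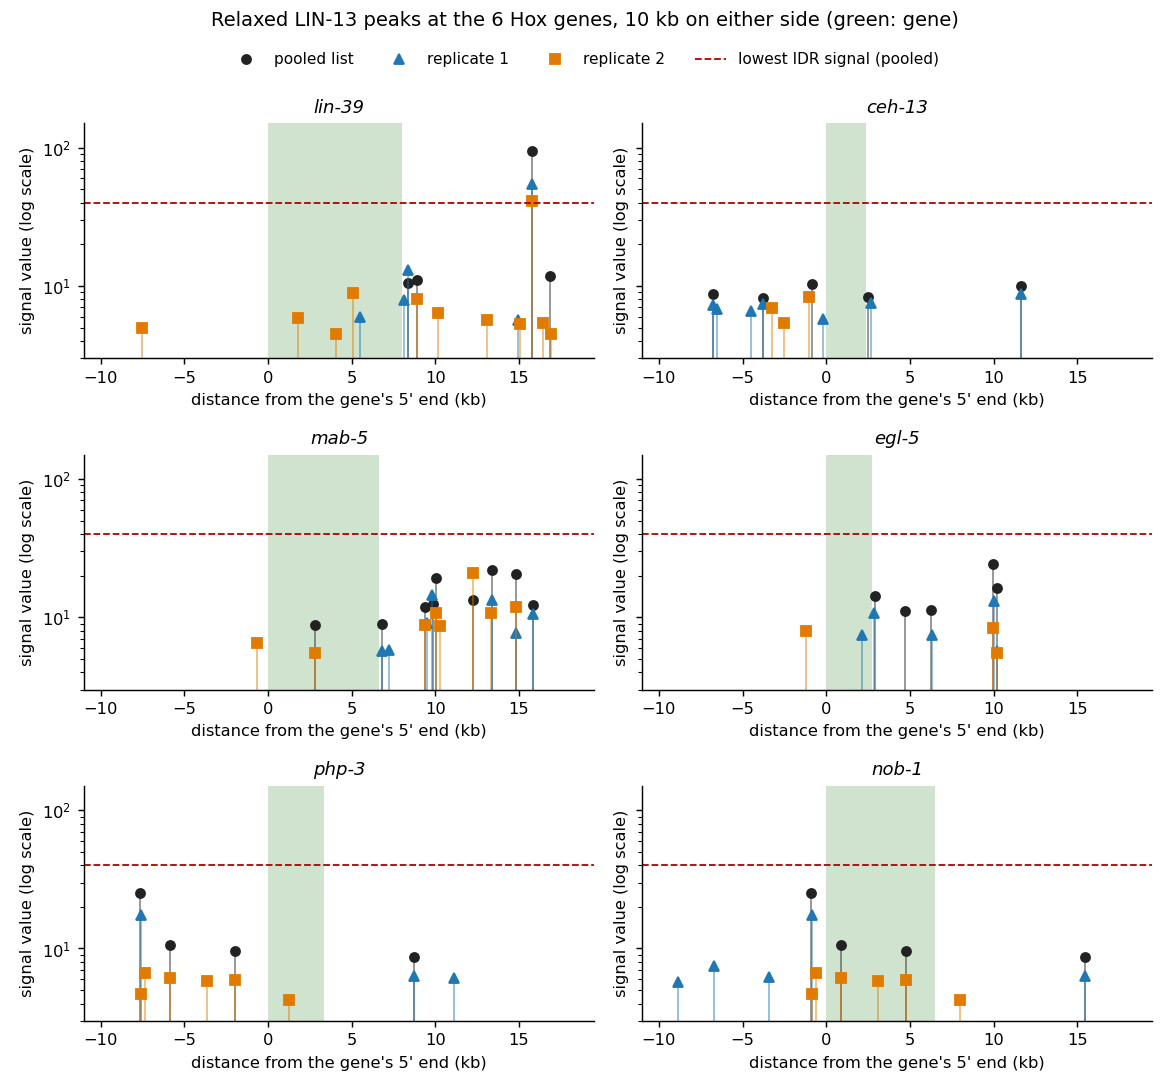
Each panel is 1 Hox gene, with the distance of relaxed summits from the gene's 5' end in kb (negative is upstream) and the signal value on a log axis. Black circles are the pooled list, blue triangles replicate 1, orange squares replicate 2, the green band the gene and the dashed line the lowest pooled signal value of the IDR list, 40.1. Only the peak 15.8 kb downstream of the 5' end of lin-39 is above the line, with its markers of the pooled list and of both replicates. The line applies to pooled values only.

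Inside lin-39 no pooled summit was listed. Its other 3 pooled summits had values of 11.7 in an exon of cux-7, 11.1 and 10.5, the last 365 bp beyond the 3' end of lin-39. Replicate 2 listed 3 weak summits in lin-39 introns, with values of 8.88, 5.89 and 4.48, and replicate 1 listed 1, with 5.96. The replicate 2 summit with 5.89 lay 48 bp from an internal 5' end of lin-39, and no replicate 1 summit overlapped these within the gene. A summit of 4.96 in replicate 2 lay upstream of the gene in linc-57, a long non-coding RNA gene. None of these was among the 2141 highest peaks of its replicate, whose lowest values were 24.3 in replicate 1 and 19.3 in replicate 2.

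At ceh-13 the 5 pooled summits were the weakest set of any window. The highest, 847 bp upstream of the 5' end, had a value of 10.3 (rank 21946). Replicate 2 listed a summit of 8.34 that overlapped it, and replicate 1 listed none there. The other 4 had values from 8.17 to 10.01, and each was found in replicate 1 and not in replicate 2. Replicate 1 also had a summit of 5.77 at 170 bp upstream of the 5' end, without a pooled counterpart, and replicate 2 had 2 such summits farther upstream, with 6.88 at 3264 bp and 5.37 at 2501 bp. No pooled summit at ceh-13 was thus in both replicate lists.

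The mab-5 window held the most pooled summits, 9, and 8 of them lay outside mab-5 on the side of its 3' end. The highest had a value of 22.1 (rank 6294), with 13.4 in replicate 1 and 10.8 in replicate 2. Its summit was in the 5' untranslated region of snu-23, a splicing factor gene, 29 bp downstream of the 5' end. The next, with 20.7, was in a coding exon of ZK686.3 (7.70 in replicate 1 and 11.9 in replicate 2). The third, with 19.3, was in an intron of ZK686.1, 57 bp upstream of a 5' end (14.5 in replicate 1 and 10.7 in replicate 2). The replicate 1 peak overlapped it, but its summit was nearer to another pooled summit in ZK686.1, with 12.4. Replicate 1 had no summit within 100 bp of the third. By overlap of at least 1 bp these 3 peaks were in both replicate lists, and all 3 belonged to neighbouring genes by position.

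Within mab-5 itself the pooled list had 1 summit, in an intron 2838 bp downstream of the 5' end, with a value of 8.75. Replicate 2 listed it with 5.49 and replicate 1 did not list it. A summit upstream of mab-5, 627 bp from the 5' end, was listed in replicate 2 (6.54) and not in the pooled list. Outside mab-5, a peak 1069 bp upstream of snu-23 had 21.1 in replicate 2 (rank 1763, among that replicate's 2141 highest). It had no peak in replicate 1 and 13.2 in the pooled list. Its pooled summit was 5646 bp beyond the 3' end of mab-5 and 402 bp from ZK686.6, the nearest gene. With replicate 2 alone, mab-5 thus had 1 of the 2141 highest summits within 10 kb.

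At egl-5 the 5 pooled summits all lay beyond the 3' end of the gene. The highest, 24.2 (rank 5383), was 26 bp past the 3' end of egl-45, which encodes a subunit of translation initiation factor eIF3, and 7210 bp from egl-5. It had 13.1 in replicate 1 and 8.35 in replicate 2. A second peak in the 3' untranslated region of egl-45 had a pooled value of 16.2 and overlapped the same replicate peaks. Nearer to its summit were weaker peaks, with 5.67 in replicate 1 and 5.50 in replicate 2. The summit nearest to egl-5 was 154 bp past its 3' end, with 14.4 in the pooled list and 10.7 in replicate 1. Of the remaining 2, with values of 11.2 each, 1 was in replicate 1 and 1 in neither replicate list. Outside the pooled list, replicate 1 had a summit of 7.44 in the 3' untranslated region of egl-5, and replicate 2 had one of 8.01 at 1228 bp upstream of its outermost 5' end.

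The windows of php-3 and nob-1 held the same 4 pooled summits. The highest, with 25.1 (rank 5037), was 910 bp upstream of the outermost 5' end of nob-1 and was the highest pooled summit nearest to a Hox gene. Replicate 1 had 17.5 there (rank 4188), whereas replicate 2 had 2 overlapping peaks of 6.62 and 4.72 (ranks 15015 and 24717). Replicate 1 thus ranked it well above replicate 2, and in neither was it among the 2141 highest. In nob-1 introns 2 pooled summits had values of 10.6 and 9.52, each listed in replicate 2 (6.12 and 5.87) and not in replicate 1. The second of these was 82 bp upstream of an internal 5' end of nob-1, which made nob-1 the only 1 of the 6 genes whose 5' end had a pooled summit within 500 bp, against 39% of all genes and 54.2% of those on chromosome III. The last, with 8.65, was in an intron of zyg-8, a microtubule-associated kinase gene. Replicate 1 listed 3 summits farther upstream of nob-1, with values from 5.77 to 7.48, that were in no other list. The body of php-3 held no pooled summit and 1 in replicate 2, with a value of 4.27.

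**Figure D2:**
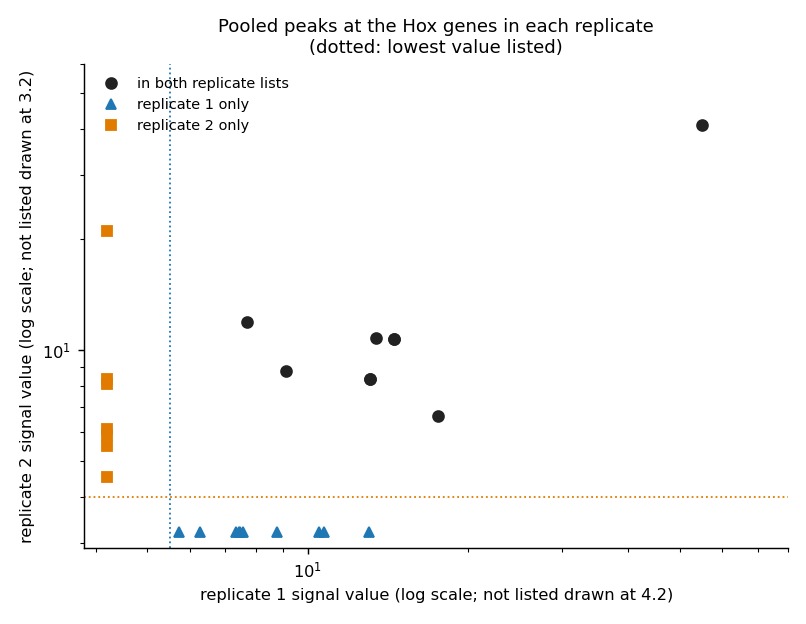
Of the 27 pooled peaks of the Hox windows, the 26 listed in a replicate are plotted by their signal values in replicate 1 (horizontal) and replicate 2 (vertical), both on log axes, with peaks of 1 replicate only at the margins. Each value is that of the highest overlapping replicate peak, so pairs of pooled peaks with the same one coincide. The lin-39 window's peak (55.0 and 41.0) stands apart from the others, and 10 peaks are in replicate 1 only and 7 in replicate 2 only.

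The replicates shared 9 of the 27 pooled peaks by an overlap of at least 1 bp. Replicate 1 alone had 10, replicate 2 alone had 7 and neither had 1. At ZK686.1 and at egl-45, a pair of pooled peaks overlapped the same replicate peak. Of all nuclear pooled peaks 50.3% were in both lists, and of those outside the IDR list 46.5%. Of the 9 shared peaks, 5 lay in the mab-5 window, all at its neighbours, 2 at egl-45, 1 at cux-7 and 1 upstream of nob-1.

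Set among all genes, the highest pooled value within 10 kb was 95.4 for lin-39, above that of 92.7% of protein-coding genes and of 87.3% of those on chromosome III. Php-3 and nob-1 (25.1) followed, above 42.5% of all genes, then egl-5 (24.2, above 41.0%) and mab-5 (22.1, above 37.3%). Ceh-13 (10.3) was above 14.4% of all genes and 3.83% of those on chromosome III. The median over the 6 genes was 24.6, against 29.5 over all genes and 39.7 over chromosome III. In replicate 1 it was 16.03, against 18.2 over all genes and 23.7 over chromosome III, and in replicate 2 it was 8.34, against 14.4 and 18.8, so the gap to all genes was wider in replicate 2. The order of the middle 4 genes is not fixed by the replicates: in replicate 1 the highest values were 17.5 for php-3 and nob-1, 14.5 for mab-5 and 13.1 for egl-5, and in replicate 2 they were 6.62, 21.1 and 8.35 for the same genes. Lin-39 was first in both, with 55.0 and 41.0. Ceh-13 was last in replicate 1 (8.77), and in replicate 2 (8.34) it stood level with egl-5 and above php-3 and nob-1.

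**Figure D3:**
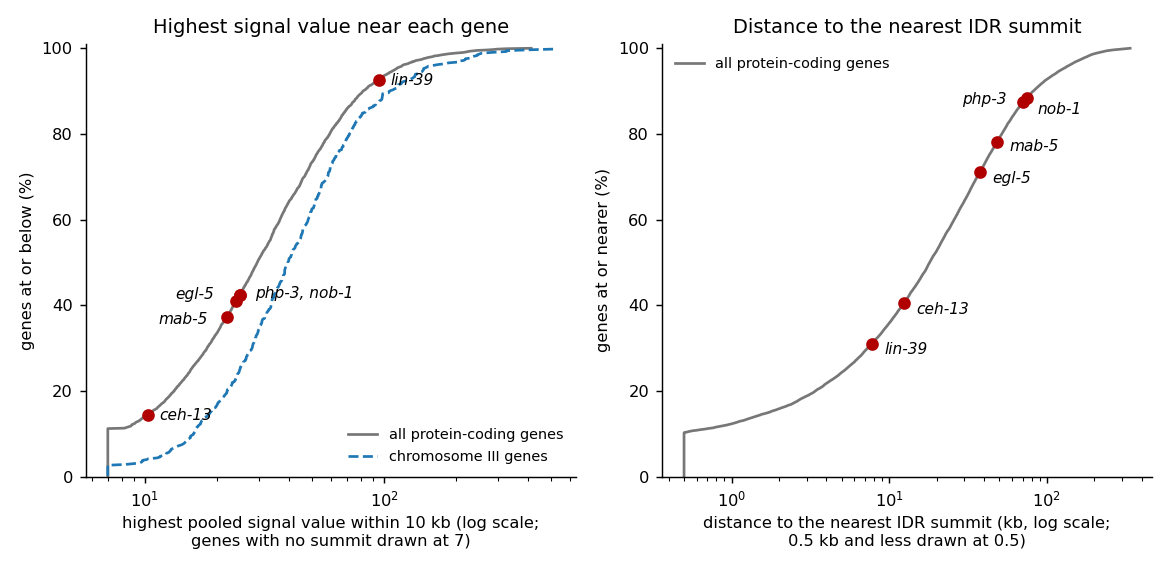
Red points mark the 6 Hox genes on the cumulative distribution of the highest pooled signal value within 10 kb (left, log axis) and of the distance to the nearest IDR summit (right, log axis, kb). The grey line is all protein-coding genes and the blue dashed line, on the left, those on chromosome III. Lin-39 is at 95.4 and 7787 bp, and the other 5 are at 25.1 or less and at 12432 bp or more.

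The nearest IDR summit was far from most of the Hox genes. It was 7787 bp from lin-39, 12432 bp from ceh-13, 37548 bp from egl-5, 48107 bp from mab-5, 70745 bp from php-3 and 74320 bp from nob-1. The median over the 6 genes was 42828 bp, against 18099 bp over all genes and 10382 bp over chromosome III. Of all genes, 88.4% were nearer to an IDR summit than nob-1, and of chromosome III genes 96.1%. The php-3 and nob-1 distances end at the same summit, so the 6 values are not independent.

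The limit of 10 kb fell just short of a strong peak at ceh-13. The last pooled summit inside it was 9244 bp away with a value of 10.01, and the first outside was the IDR peak at 12432 bp with 58.1 (rank 1011). That peak lay 340 bp upstream of R13A5.7. A further IDR peak of 71.5, 236 bp upstream of rpl-9, a ribosomal protein gene, was also within 20 kb. At the other genes the first pooled summits outside the limit had values from 9.86 to 21.2.

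The interval from the lin-39 window to the egl-5 window held 9 IDR summits. Of these, 8 lay in the 198.8 kb between the ceh-13 and mab-5 windows, where the pooled list had 52 summits. The 49.4 kb of the lin-39 and ceh-13 windows had 1 IDR and 9 pooled summits, and the 60.3 kb from the mab-5 to the egl-5 window had 0 and 16. Around lin-13 there were 6 IDR peaks within 20 kb, led by the one 782 bp upstream of its 5' end with 285.6 (rank 22). All 6 were on the side of the 5' end, from 782 to 19237 bp from it. The strain carries lin-13 a second time in the transgene, and reads of the copies cannot be told apart in these lists.

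**Figure D4:**
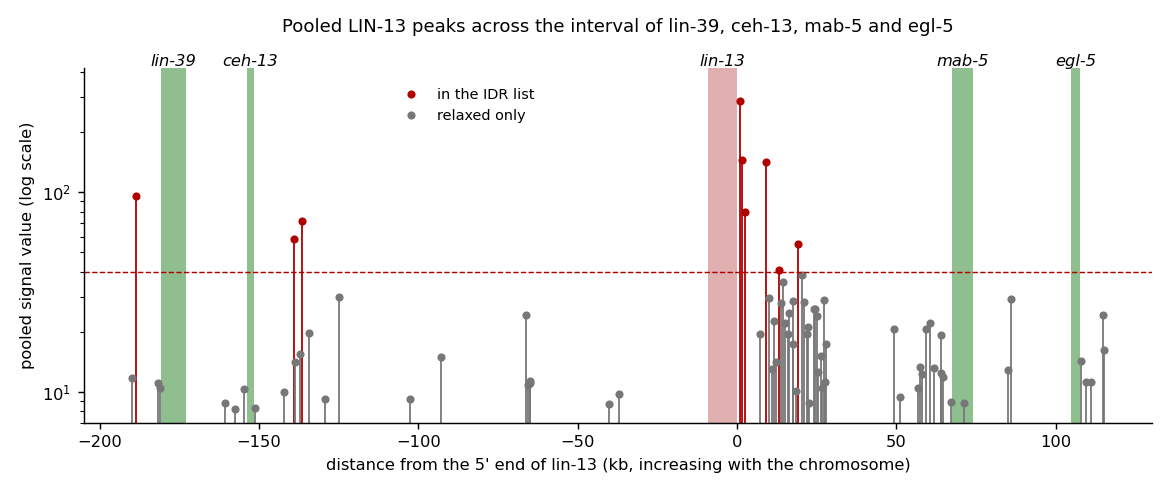
Pooled summits are drawn by their distance from the 5' end of lin-13 (kb) and their signal value (log axis), with IDR peaks in red and relaxed-only peaks in grey. Green bands are the Hox genes, the pink band is lin-13, and the dashed line is at 40.1. IDR peaks stand beside lin-39, between ceh-13 and lin-13 and from 782 to 19237 bp upstream of lin-13, and there are none at mab-5 or egl-5.

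By position, the Hox-window peaks resembled relaxed peaks in general more than IDR peaks. Only 1 of the 27 was in the IDR list, and 27855 of all 29976 nuclear pooled peaks were outside it. This likeness was thus largely set by the lists and is not read as a trait of the Hox genes. Of the 27 summits, 7 (25.9%) were within 500 bp of a protein-coding 5' end, against 32.2% of all nuclear pooled summits and 53.3% of nuclear IDR summits. Of these 7, 6 were at genes other than Hox genes. The 27 comprised 15 intergenic, 6 intronic and 3 coding-exon summits, with 2 in 3' and 1 in 5' untranslated regions. A Hox gene was the nearest gene of 10. Their median GC content was 36.3%, the same as over all pooled windows, against 43.8% over IDR windows.

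Motifs were sought on both strands within 100 bp of the summits. The first was the repeat GAGAGAG. The second, TTTGAA, is the core of the CHR element of cell cycle genes. The first E2F-like motif was GCGGGAA. The second E2F-like motif had the letters GCGCGAA in place of these. For Hox proteins bound with PBX partners TGATNNAT was searched, and for homeodomains in general their core TAATTA. The others were TGATAA for GATA factors and GGGCGG for SP1-like factors. The Hox-PBX and GATA motifs begin with the same letters and can overlap. TAATTA was found at 7 of the 27 summits (25.9%), against 7.99% of all pooled windows and 4.998% of IDR windows. The GC content of these 7 windows ran from 23.4% to 43.3%, and its part in the count was not tested. Hox-PBX letters were at 5 summits (18.5%), against 14.2% of all pooled and 8.82% of IDR windows (18.5%, against 21.0% and 15.7%, within 150 bp), and 1 of these is TGATTTAT in the ceh-13 window's sequence printed earlier. Repeated GAGA was at 0 of the 27, against 7.35% of all pooled windows and 19.8% of IDR windows. Within 150 bp it was at 3 (11.1%), against 9.52% of all pooled and 23.1% of IDR windows, so its count of 0 depends on the width of the window. Both E2F-like motifs were also at 0 of the 27, against 2.94% of all pooled and 4.67% of IDR windows for the first and 1.76% and 4.43% for the second.

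Of the 7 summits with the homeodomain core, 3 were nearest to a Hox gene, and their windows are shown because they hold the motif beside lin-39, mab-5 and egl-5. Capitals again mark any of the 8 motifs, and the core lies from 53 to 58, from 9 to 14 and from 58 to 63 bp to the right of the summit, in this order.
365 bp beyond the lin-39 3' end, chrIII:7528176-7528376: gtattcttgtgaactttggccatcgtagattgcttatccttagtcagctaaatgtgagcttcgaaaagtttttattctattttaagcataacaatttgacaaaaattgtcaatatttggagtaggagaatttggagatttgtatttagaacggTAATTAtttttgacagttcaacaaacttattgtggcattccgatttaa
213 bp beyond the mab-5 3' end, chrIII:7776522-7776722: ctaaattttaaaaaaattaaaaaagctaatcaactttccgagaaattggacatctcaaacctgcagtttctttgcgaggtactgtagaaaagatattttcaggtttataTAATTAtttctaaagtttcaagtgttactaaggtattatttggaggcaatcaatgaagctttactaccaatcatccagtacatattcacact
154 bp beyond the egl-5 3' end, chrIII:7817195-7817395: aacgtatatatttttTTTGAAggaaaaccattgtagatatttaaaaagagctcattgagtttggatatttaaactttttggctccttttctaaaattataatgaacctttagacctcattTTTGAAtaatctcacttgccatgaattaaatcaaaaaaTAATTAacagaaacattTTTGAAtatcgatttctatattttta

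These 3 peaks were weak, with pooled signal values of 10.5 beside lin-39, 8.93 beside mab-5 and 14.4 beside egl-5, and each was listed in replicate 1 and not in replicate 2. Beside the core, TTTGAA stood in 3 copies in the egl-5 window.

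Among the 27 summits, TTTGAA was at 13 (48.1%, against 46.5% of all pooled windows), TGATAA at 2 (7.41%, against 20.5%) and GGGCGG at 3 (11.1%, against 5.11%). GGGCGG stood in 3 copies, 2 of them overlapping, in the nob-1 sequence, and as CCGCCC in 2 copies in the ceh-13 sequence. The highest egl-5 window, at egl-45, had none of the 8 motifs. These are matches of letters, counted over few summits, and no factor was measured at them.

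**Figure D5:**
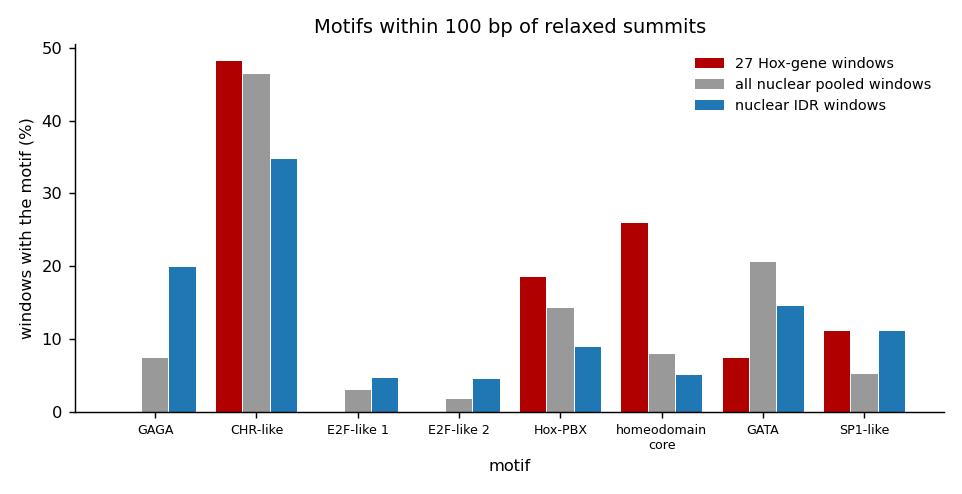
Bars give the percentage of windows, 100 bp on either side of a summit, that hold each motif: the 27 Hox-gene windows in red, all nuclear pooled windows in grey and nuclear IDR windows in blue. E2F-like 1 and E2F-like 2 are the first and the second E2F-like motif. At this width the red bar is above both others for the homeodomain core (25.9%), Hox-PBX (18.5%) and, by little, CHR-like (48.1%), and level with the IDR bar for SP1-like (11.1%). It is lowest for GATA (7.41%), and at 0 at this width for GAGA and both E2F-like motifs.

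Genes listed as acting with, upon or downstream of the Hox genes were looked up in 5 lists, of 36 genes in all. Of these, 19 had an IDR summit inside or within 10 kb, against 35.8% of all genes, and 7 had one at most 500 bp from a 5' end, against 6.99%. The trithorax-like genes, listed as maintenance genes, had 6 of 6 within 10 kb and 4 at a 5' end. Polycomb-like repressors of Hox genes had 3 of 6 and 2, Hox cofactors 2 of 4 and 0, upstream regulators 5 of 11 and 0, and Hox target genes 3 of 9 and 1. Of the trithorax-like genes, set-2, set-16 and wdr-5.1 lie on chromosome III, where 49.2% of genes had an IDR summit within 10 kb. The lists are short and were chosen with earlier results of these data known, and these shares were not tested.

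The highest peak of the 5 lists was near set-16, a histone H3K4 methyltransferase gene, with a signal value of 285.8 (rank 21), 157.1 in replicate 1 and 126.5 in replicate 2. Its summit, 179 bp from the 5' end, was equally at the promoter of drr-2, at most 500 bp away. Ash-2, a subunit of H3K4 methyltransferase complexes, had 73.8 at 108 bp from its 5' end, a promoter region it shares with Y17G7B.20. Set-2, another H3K4 methyltransferase gene, had 52.5 at 246 bp (22.9 in replicate 1 and 27.2 in replicate 2, rank 2414 in replicate 1), and lin-49 had 54.7 at 310 bp (34.5 in replicate 1 and 16.6 in replicate 2, rank 2853 in replicate 2). Each of these 2 peaks was thus outside the 2141 highest of 1 replicate. The lin-59 and wdr-5.1 genes had their highest values within 10 kb at 79.6 and 60.9, and no IDR summit at their promoters. Their nearest IDR summits were 532 bp (lin-59, just past the limit of 500 bp) and 1669 bp (wdr-5.1) from a 5' end.

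Among Polycomb-like genes, sor-3 had an IDR peak of 77.6 at 246 bp and sor-1 one of 67.3 at 438 bp from the 5' end. Sop-2 had 68.2 within 10 kb, with its nearest IDR summit 604 bp from a 5' end. The genes mes-2, mes-3 and mes-6, which encode the worm's H3K27 methyltransferase complex, had no IDR summit within 10 kb and highest values of 34.9, 20.4 and 28.5. Among cofactors, ceh-20, the PBX homologue, had 134.5 within 10 kb, with the nearest IDR summit 7781 bp from a 5' end. Ceh-60 had 42.4 and unc-62, the Meis homologue, 36.7 with no IDR summit.

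Sys-1, a beta-catenin gene of Wnt signalling, led the upstream regulators with 91.3 within 10 kb, followed by lin-1, an ETS factor gene of the vulval Ras pathway (56.1), and lin-22 (55.6). Among targets, egl-17, a fibroblast growth factor gene expressed in the vulva, had an IDR peak of 58.7 at 150 bp from its 5' end. Mig-13 (45.3) and egl-1 (44.5), a cell death activator, followed. Egl-17 was the only 1 of the 20 regulators and targets with an IDR summit at its promoter.

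Likeness was measured over the 2 replicates as the distance between the log10 highest signal values within 10 kb. The comparison covered 2555 protein-coding genes on chromosome III outside the Hox windows. Nearest to lin-39 were clk-2, whose window holds the same peak (distance 0), and ZK1236.9 (53.9 in replicate 1 and 40.5 in replicate 2). Acr-21 and ddo-3 were nearest to ceh-13, klp-19 and slc-36.1 to mab-5, C29E4.12 and mab-21 to egl-5, and C44B11.6 and frm-8 to php-3 and nob-1. Acr-21 and ddo-3 had the same values as each other (8.65 in replicate 1 and 8.47 in replicate 2). So had klp-19 and slc-36.1 (14.9 and 20.6), so the genes of these pairs are not separate likenesses. Distances were at most 0.026 on the log10 scale.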

How the data were processed

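Chromatin from whole L4 larvae was immunoprecipitated for LIN-13 and sequenced in 2 biological replicates, per the labels. Of the narrowPeak lists that the authors deposited, those on build ce11 were used and those on ce10 were not. The deposited listings record that peaks were called against a control library, once per replicate and once on both replicates together (the relaxed lists), and then filtered by IDR. Which aligner, caller, versions and IDR threshold were used is not given in the sources used here. Each peak's signal value is the authors' own, deposited with no stated scaling. The deposited −log10 q-values reach a maximum shared by many peaks, so ranks were taken from the signal value. The IDR list was the 2141 pooled peaks of highest signal value. Depth per replicate is unknown.

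Positions, counted from 1, were set against the WBcel235 annotation (Ensembl release 115) and the RefSeq genome of the same assembly, on which 10 of 10 start codons of the Hox genes read ATG. The 5' ends are those of protein-coding transcripts. Peaks were called shared between lists at an overlap of at least 1 bp, and the highest overlapping replicate peak was taken. Motifs were counted on both strands in windows of 201 bp. Window counts and the motif scan were tested on simulated data. There was 1 group and no test was run, so shares and medians are given beside those of all genes. Named were the Hox genes, IDR peaks within 10 kb, the 3 highest pooled peaks of each window, up to 3 leading genes of each list, those with an IDR summit at a 5' end and 2 genes most like each Hox gene. Further peaks and genes were named after their values were seen. The members, lists and motifs were chosen with earlier results of these data known. Alternatives were other distances, each replicate alone, stricter and looser lists, overlaps and motif windows. The software was pandas 2.3.3 and NumPy 2.4.6 under Python 3.11.15, with matplotlib 3.10.9 for figures.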

Additional observations from a re-analysis of the deposited data

How the results depend on the processing

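The count of IDR summits near the Hox genes followed the distance allowed. At 2 kb and at 5 kb it was 0, with 0 of the 6 genes having one, and at 20 kb it was 3, with 2 genes (lin-39 and ceh-13), against 1 and 1 at 10 kb. Of all protein-coding genes 15.8% had one at 2 kb, 24.2% at 5 kb and 52.7% at 20 kb. The median over the Hox genes of the highest pooled signal value was 10.7 at 2 kb, 12.7 at 5 kb and 29.6 at 20 kb, and the pooled summits numbered 11, 16 and 51 at these distances. The 1070 highest IDR peaks and the 4282 highest pooled peaks both gave 1 summit and lin-39, with 21.5% and 53.4% of all genes.

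With each replicate's own 2141 highest peaks, the summits numbered from 1 (replicate 1 alone) to 2 (replicate 2 alone), and the Hox genes from 1 (lin-39) to 2 (lin-39 and mab-5). The percentage of all genes ran from 35.3 to 35.8, the median highest value from 8.34 in replicate 2 (14.4 over all genes) to 16.03 in replicate 1 (18.2 over all genes), and the relaxed summits from 30 to 31. Replicate signal values are on each list's own scale.

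Shared peaks numbered 6 with summits within 100 bp, and 6 with 50% overlap of both intervals. Any motif was at 20 of the 27 summits within 100 bp (74.1%), near the share of all pooled windows (72.6%) and of IDR windows (69.5%). The count was 12 within 50 bp and 21 within 150 bp. The homeodomain core was at 3 summits within 50 bp (11.1%, against 3.71% of all pooled windows) and at 8 within 150 bp (29.6%, against 12.2%). The GAGA repeat was at 0 within 50 bp (4.27% of all pooled windows) and at 3 within 150 bp (11.1%, against 9.52%). No paired analysis was possible because both replicates belong to the same group. The lists hold no read counts, and binding below their floors could not be seen. Entries above the floor of a relaxed list can be background and need not be binding.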
